A study of Mus musculus with 12 samples.

Results

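Gene expression was compared between osteoclasts of male mice labelled Per1 knockout and osteoclasts of male mice labelled control, across 9699 autosomal protein-coding genes. A gene was a member of this set when it reached 1 FPKM, that is, fragments counted per 1 kb of gene and corrected for depth, in at least 3 of the 6 male libraries. That kept 46.8% of the 20716 autosomal protein-coding genes of the deposited table, and 9255 members reached 1 FPKM in all 6 libraries. At the edge of the filter, 123 members reached it in exactly 3 libraries with a median of their mean levels of 1.00 FPKM, and 121 genes reached it in exactly 2 and stayed out with a median of 0.886 FPKM. Of those 123 members, 11 passed through the 3 knockout libraries alone and 22 through the 3 control libraries alone.

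The libraries came from a series of 12 in 4 groups of 3, with female knockout and female control libraries beside the male ones. Male Per1 knockout replicates 1, 2 and 3 and male Control replicates 1, 2 and 3 were bone marrow monocytes, taken at 8 to 12 weeks of age and turned into osteoclasts over 4 days by M-CSF and RANKL, which keep precursors alive and drive their fusion. Every group had this culture and the same RNA and library kits. Library names carry cKO, the usual mark of a conditional knockout, but the labels name neither the deleted part of Per1 nor the Cre driver, and whether replicates are separate animals is not said. Each replicate number is also a batch number. The p-values below therefore measure the spread between these libraries, which may be technical in part.

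Osteoclasts are large multinucleate cells that resorb bone, formed when monocyte precursors stop dividing, fuse and switch on acid and protease secretion. Per1 encodes a repressor in the circadian feedback loop. Several gene groups below belong to the growth programme of a cell. The nucleolus makes ribosomes: RNA polymerase I copies ribosomal RNA, small nucleolar ribonucleoproteins modify it, and assembly factors fold and cut it into the small and the large subunit. In mammalian cells the transcription factor Myc, bound with Max at the E-box CACGTG, drives many of these genes, and Mxd proteins compete for Max. FoxO factors, which are active when growth signals are low, bind GTAAACA and switch on arrest and catabolic genes.

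These members are described with the DNA around their starts, because both gene groups are known for a short motif there. RefSeq promoter windows (build GRCm38.p6, 250 bases before to 50 after each start) were matched by symbol for 7847 of the 9699 members. The motif CACGTG, which reads the same on both strands, stood in at least 1 window of 12.4% of matched members and of 8.09% of all 27025 genes of the table. Among matched members of 4 lists of nucleolar genes it stood in 18 of 89 (20.2%), with 11 of 31 in the small subunit processome list, 7 of 36 in the large subunit list, and none in the small nucleolar ribonucleoprotein list of 13 or in the nucleolar phosphoprotein list of 11. It was not particular to these lists: it stood in 7 of 30 (23.3%) matched members of the FoxO-type list, 8 of 24 immediate early genes, 4 of 10 V-ATPase genes and 4 of 10 cathepsins. The motif GTAAACA, searched on both strands, stood in 3.08% of matched members, in 4.05% of all genes of the table, and in 7 of 30 (23.3%) matched members of the FoxO-type list. A match is a run of letters and not a measured binding site.

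Shown first are 4 windows of nucleolar genes whose values are given below, 5′ to 3′ on the gene's strand with the E-box in capitals. Nop2 (chr6:125131633-125131932, plus strand) encodes a methyltransferase of large subunit ribosomal RNA, and its motif starts at base -60 from the start site.
Nop2: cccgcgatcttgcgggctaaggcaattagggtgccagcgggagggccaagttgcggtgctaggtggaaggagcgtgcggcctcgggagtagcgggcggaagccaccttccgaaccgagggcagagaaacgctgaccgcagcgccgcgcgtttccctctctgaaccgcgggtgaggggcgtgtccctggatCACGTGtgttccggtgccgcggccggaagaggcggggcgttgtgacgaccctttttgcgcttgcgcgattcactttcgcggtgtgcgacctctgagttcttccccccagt
Pno1 (chr11:17211540-17211839, minus strand) encodes a factor of late small subunit maturation, with the motif at base 37.
Pno1: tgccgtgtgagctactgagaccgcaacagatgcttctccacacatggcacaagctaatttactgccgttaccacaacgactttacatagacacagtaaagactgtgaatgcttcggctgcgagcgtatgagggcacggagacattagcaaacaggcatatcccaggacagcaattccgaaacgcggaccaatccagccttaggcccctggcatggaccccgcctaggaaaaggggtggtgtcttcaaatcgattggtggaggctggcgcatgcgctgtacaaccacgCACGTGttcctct
Nle1 (chr11:82908346-82908645, minus strand) encodes a large subunit assembly factor, with the motif at base 23.
Nle1: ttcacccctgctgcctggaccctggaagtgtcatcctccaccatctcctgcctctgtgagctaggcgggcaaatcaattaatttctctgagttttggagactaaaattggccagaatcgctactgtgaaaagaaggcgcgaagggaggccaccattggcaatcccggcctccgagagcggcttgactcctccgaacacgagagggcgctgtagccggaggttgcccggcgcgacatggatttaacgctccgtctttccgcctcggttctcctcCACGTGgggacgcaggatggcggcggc
Wdr43 (chr17:71615965-71616264, plus strand) encodes a protein of the small subunit processome, with the motif at base 17.
Wdr43: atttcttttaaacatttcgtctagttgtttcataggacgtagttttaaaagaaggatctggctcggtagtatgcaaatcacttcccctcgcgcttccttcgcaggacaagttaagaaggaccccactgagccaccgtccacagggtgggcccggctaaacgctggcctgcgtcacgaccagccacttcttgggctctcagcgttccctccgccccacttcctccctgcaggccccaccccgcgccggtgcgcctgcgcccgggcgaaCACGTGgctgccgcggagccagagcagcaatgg

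From the FoxO-type list, 2 windows are shown with GTAAACA in capitals. Hbp1 (chr12:31950196-31950495, minus strand) encodes a repressor of cell cycle genes, and its motif starts at base -149.
Hbp1: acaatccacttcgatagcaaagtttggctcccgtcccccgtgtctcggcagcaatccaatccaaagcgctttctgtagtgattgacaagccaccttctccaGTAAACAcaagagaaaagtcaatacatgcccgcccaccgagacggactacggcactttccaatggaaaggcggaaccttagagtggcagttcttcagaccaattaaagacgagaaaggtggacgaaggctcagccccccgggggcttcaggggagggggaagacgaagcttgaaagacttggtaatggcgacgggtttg
Txnip (chr3:96557707-96558006, plus strand) encodes a thioredoxin-binding protein that limits glucose uptake, with the motif at base -121.
Txnip: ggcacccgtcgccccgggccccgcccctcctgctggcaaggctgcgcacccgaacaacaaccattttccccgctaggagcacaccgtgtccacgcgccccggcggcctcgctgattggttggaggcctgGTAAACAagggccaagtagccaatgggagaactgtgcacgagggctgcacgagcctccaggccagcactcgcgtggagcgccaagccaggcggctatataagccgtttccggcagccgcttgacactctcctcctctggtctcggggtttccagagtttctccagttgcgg

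The male libraries held 15366600 to 24346288 fragments rebuilt from the table, of which the members took 89.5% to 91.1%. At this depth a floor of 3 fragments on a gene of 1 kb is 0.119 to 0.188 FPKM, for counting error only. Genes of ribosomal RNA took 0.509% of fragments in knockout replicate 1 and 0.437% in control replicate 3, against 1.16% to 1.40% in the other 4 male libraries, so each group had 1 library of the low kind. The transcript of the targeted gene, Per1 (ENSMUSG00000020893, chromosome 11), was at 2.36, 2.66 and 2.99 FPKM in libraries labelled knockout, against 3.70, 3.63 and 2.69 FPKM in control libraries. The groups overlapped, and the difference of -0.24 on the log2 scale did not pass the test (adjusted p = 0.448, limma; exact two-sided permutation p = 0.2, where 0.1 is the smallest 3 against 3 allow). Whether the counted exons include the deleted part is not given, so this gene does not check the labels.

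Osteoclast markers were abundant in all 6 libraries. Ctsk, the collagen-degrading protease of osteoclasts, was at 7100, 6157 and 5476 FPKM in knockout libraries, against 6466, 8117 and 5946 FPKM in control libraries. Acp5, the tartrate-resistant phosphatase used to stain these cells, was at 2702, 3139 and 2891 FPKM in knockout libraries, against 3543, 4113 and 2469 FPKM in control libraries. Both genes overlapped between the groups. Markers of other bone marrow cells were measured beside them. The summed level of 42 monocyte and macrophage markers was 6228 to 7993 FPKM in knockout and 7798 to 10620 FPKM in control libraries, and that of 16 neutrophil markers 1564 to 2218 FPKM in knockout and 1509 to 2980 FPKM in control libraries. The 16 lymphocyte markers summed to 59.6 to 72.5 FPKM in knockout and 44.2 to 128 FPKM in control libraries. The 12 markers of mast cells, basophils and eosinophils summed to 30.3 to 32.8 FPKM in knockout and 23.7 to 58.3 FPKM in control libraries. Stromal markers (17), endothelial markers (10) and erythroid markers (10) each summed to under 8 FPKM in every male library. A few of these markers were at 0 in all 6 libraries, namely Tpsb2 and Mcpt4 of mast cells, Car1 of erythroid cells and Cldn5 of endothelium. Others on the same lists passed the filter as members. They were 5 mast cell, basophil and eosinophil markers, 1 erythroid and 2 endothelial ones, among them Cpa3, Hba-a1 and Pecam1. In these bulk libraries, fewer cells of a type and less RNA per cell cannot be told apart.

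The test was limma on log2(FPKM + 1), with changes given as knockout minus control and p-values adjusted over 12237 tested genes. Most differences were small. The median absolute log2 change over members was 0.105, 2 members had a mean over 2-fold higher in knockout libraries, and 39 were lower to the same extent. Some of the 39, such as Ropn1l and Il1b, passed the filter through the control libraries alone. Their low knockout level is thus partly a matter of the filter, and the counts below include such members too. No member was higher past an adjusted p of 0.05 (0%) and 1 was lower (0.0103%). At an unadjusted p under 0.05, 909 members were higher (9.37%) and 662 were lower (6.83%). These shares are the background for the counts of list members below at that threshold. After adjustment, voom on the rebuilt fragments called 2 higher and 3 lower. Leaving out control replicate 1 brought the unadjusted counts to 530 higher and 379 lower, and leaving out knockout replicate 1 brought the lower count to 431. Without control replicate 3, 45 genes were called higher and 19 lower after adjustment.

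All 3 knockout libraries lay above all 3 control libraries in 1395 members (14.4%) and below them in 1123 (11.6%). The first principal component of the members held 46.5% of the variance, with scores of 16.1, 6.60 and 3.47 in knockout replicates 1, 2 and 3, against -15.4, -8.34 and -2.48 in control replicates 1, 2 and 3. Replicate pair 1 thus stood farthest apart and pair 3 closest. The second component held 23.0% and set control replicate 3 (-14.3) apart from control replicate 2 (9.44).

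Cx3cr1 was the member that passed the adjusted test. It encodes the receptor of the chemokine fractalkine and marks monocytes and their early progeny. Its level was 4.19, 6.39 and 7.78 FPKM in knockout libraries, against 23.3, 24.0 and 21.9 FPKM in control libraries. The groups stood far apart, with a mean of 6.12 ± 1.81 FPKM in knockout and 23.1 ± 1.08 FPKM in control libraries (SD, n = 3 each), or 26.5% of control. The log2 change was -1.79 with a standard error of 0.174 (adjusted p = 0.00856). The call was lost when the 6 male libraries were fitted by themselves (adjusted p = 0.139), with replicate number within sex as a block (0.0935), in the 8 libraries with more ribosomal RNA (0.136), and without knockout replicate 2 (0.0588), control replicate 1 (0.0858) or control replicate 2 (0.0698). In every one of these the log2 change stayed between -1.61 and -1.83. The labels name no Cre driver, and whether the genetic construct itself altered this gene was not tested.

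**Figure D1:**
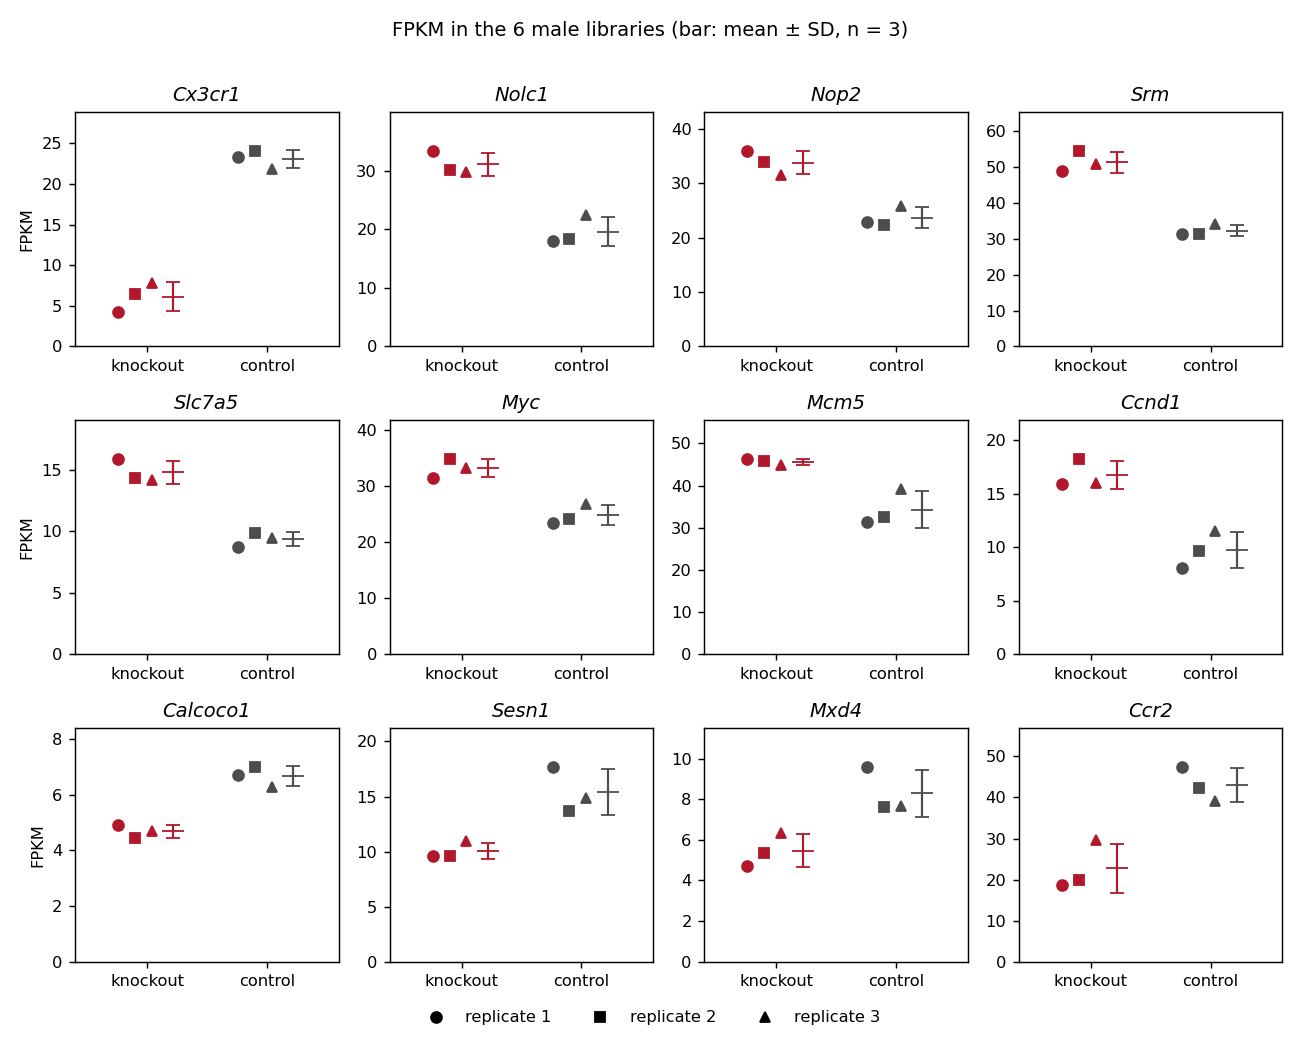
FPKM (vertical axes, from 0) of 12 named genes in the 3 knockout libraries (red, left) and the 3 control libraries (grey, right), with marker shapes for replicate number and a bar for the mean ± SD. In all 12 panels the knockout points lie on one side of the control points; the widest gap is that of Cx3cr1, with 4.19 to 7.78 FPKM against 21.9 to 24.0 FPKM.

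Genes of ribosome assembly were higher in the knockout libraries as a group, though no single one passed the adjusted test. Of 108 members on 4 nucleolar lists, 104 had a positive log2 change, 70 were higher at an unadjusted p under 0.05 (64.8%, against 9.37% of all members) and none was lower. The median change was 0.30, against 0.00 over all members. By replicate pair the median was 0.45 in pair 1, 0.34 in pair 2 and 0.08 in pair 3. Between the libraries with more ribosomal RNA it was 0.33, and between the pair with less it was 0.20. The members with a negative change were Utp3 (-0.09), Ddx55 (-0.01), Pih1d1 (-0.14) and Nop53 (-0.23), named after their values were seen.

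Among large subunit assembly factors, 41 of 42 members were positive, 30 were higher at an unadjusted p under 0.05, and the median log2 change was 0.32. Nop2 was at 35.9, 34.0 and 31.5 FPKM in knockout libraries, against 22.8, 22.3 and 25.8 FPKM in control libraries. Its groups did not overlap, at a log2 change of 0.50 ± 0.09 (SE; adjusted p = 0.0963). Bop1, a subunit of the PeBoW complex that processes large subunit RNA, was at 28.1, 28.5 and 25.1 FPKM in knockout libraries, against 19.7, 19.5 and 20.4 FPKM in control libraries. Mrto4, which helps to mount the ribosomal stalk, was at 15.9, 14.8 and 15.6 FPKM in knockout libraries, against 10.9, 10.6 and 12.2 FPKM in control libraries. Both were higher in every knockout library than in any control library, by 0.44 and 0.43 on the log2 scale. Noc2l, a nuclear assembly and export factor, differed by 0.35 and Nle1 by 0.37.

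The small subunit processome is the large particle that cuts and folds the precursor of the small subunit. Of its 39 members 38 were positive, 23 were higher at an unadjusted p under 0.05, and the median log2 change was 0.27. Pno1 was at 40.1, 37.7 and 40.0 FPKM in knockout libraries, against 29.3, 27.6 and 31.2 FPKM in control libraries, a log2 change of 0.41 ± 0.08 (adjusted p = 0.105). Tbl3, a WD repeat subunit, was at 9.91, 9.96 and 9.92 FPKM in knockout libraries, against 7.25, 6.64 and 7.76 FPKM in control libraries. The knockout libraries hardly differed among themselves for either gene and lay above all control libraries. Wdr43 differed by 0.45, Nol6 by 0.32 and Noc4l by 0.33, none past adjustment.

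Small nucleolar ribonucleoprotein proteins belong to the particles that carry out methylation and pseudouridylation of ribosomal RNA. Of 16 members 15 were positive and 10 were higher at an unadjusted p under 0.05, with a median of 0.27. Nolc1, a nucleolar chaperone of these particles, was at 33.3, 30.2 and 29.8 FPKM in knockout libraries, against 18.0, 18.3 and 22.4 FPKM in control libraries. Its log2 change was 0.65 ± 0.13 (adjusted p = 0.105), where the 99th percentile of members was 0.41. Nop58, a core box C/D protein, was at 10.8, 9.72 and 9.90 FPKM in knockout libraries, against 5.92, 6.33 and 8.51 FPKM in control libraries. In both genes control replicate 3 was the highest control and still lay under every knockout library. Nucleolar phosphoproteins, a list that shares Nolc1, had 12 of 13 positive and a median of 0.35, with the RNA helicase Ddx21 at 0.45.

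RNA polymerase I and polymerase III, which make ribosomal and transfer RNA, had smaller medians. Of 15 polymerase I members 11 were positive and 6 were higher at an unadjusted p under 0.05, with a median of 0.14. Polr1a, the largest subunit, was at 7.74, 6.41 and 5.91 FPKM in knockout libraries, against 4.23, 4.64 and 4.95 FPKM in control libraries. Of 21 polymerase III members 17 were positive, with a median of 0.09. At that threshold 4 were higher (19%, against 9.37% of all members) and 1 was lower (4.76%, against 6.83%). The 1 lower was Polr3gl, at 7.03, 8.37 and 9.35 FPKM in knockout libraries, against 10.8, 10.9 and 10.5 FPKM in control libraries. It is a subunit variant that replaces Polr3g in differentiated cells. The RNA exosome, which trims these precursors, had 13 of 13 positive with a median of 0.18.

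Cytosolic ribosomal proteins stayed near the all-member median. Of 89 members with symbols beginning Rpl or Rps, a pattern that also takes some kinases and related genes, 44 were positive and 3 were higher at an unadjusted p under 0.05. The 3 were Rpl7l1 (0.19), Rps19bp1 (0.27) and Rps27l (0.27), relatives or partners of ribosomal proteins. The family's median was 0.00, its sign changed in 9 of 19 alternative settings, and the groups overlapped in the level of the list. Ribosomal protein genes have many close copies in the genome, so their reads are uncertain where counting could split them.

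**Figure D2:**
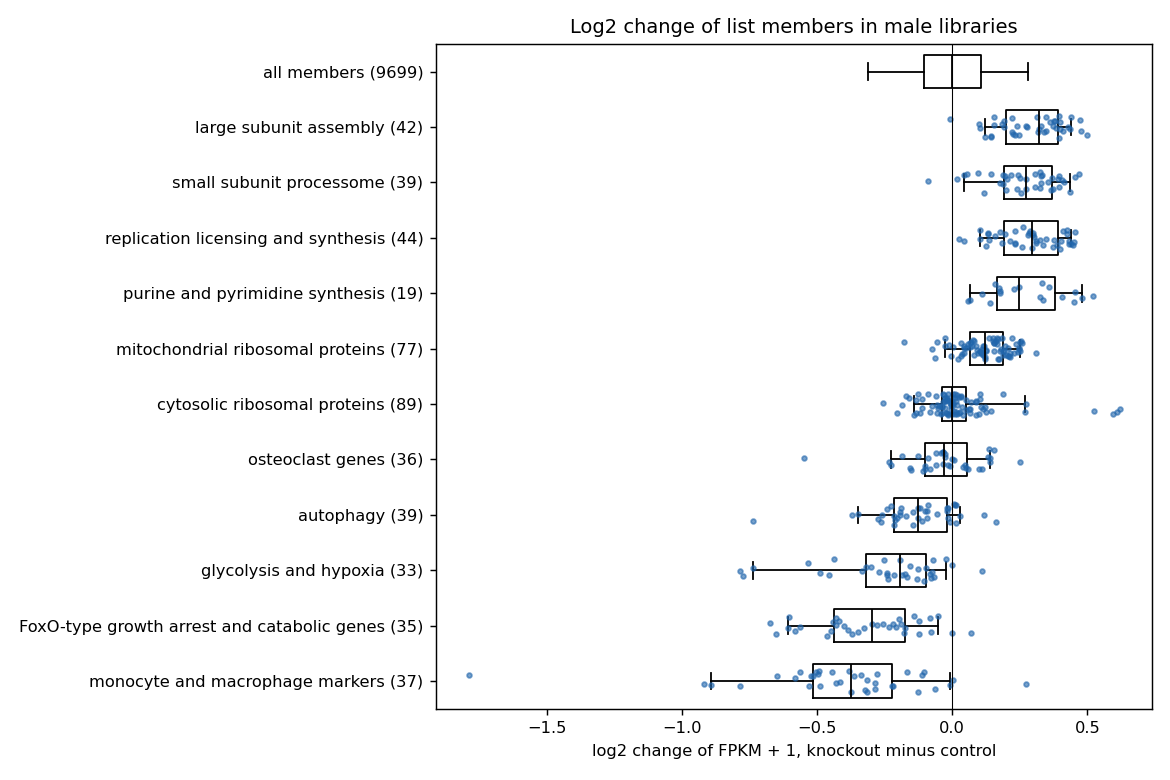
Log2 change of FPKM + 1, knockout minus control (horizontal axis), for all 9699 members and for 11 gene lists (rows, with the number of members); boxes give quartiles and median, whiskers the 5th and 95th percentiles, and blue points single members. Lists of ribosome assembly, replication and nucleotide synthesis lie to the right of 0 with medians of 0.25 to 0.32, and the FoxO-type and monocyte lists to the left with medians of -0.30 and -0.38.

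Members of the Myc family lay on both sides of 0. Myc was at 31.5, 34.8 and 33.3 FPKM in knockout libraries, against 23.5, 24.1 and 26.8 FPKM in control libraries, a log2 change of 0.41 ± 0.08 (adjusted p = 0.105). Tfap4, a helix-loop-helix factor that Myc induces, was at 7.51, 7.44 and 6.90 FPKM in knockout libraries, against 5.31, 4.71 and 4.94 FPKM in control libraries. Mxd4, a Myc antagonist, was at 4.70, 5.37 and 6.33 FPKM in knockout libraries, against 9.61, 7.61 and 7.65 FPKM in control libraries. None of the 3 genes overlapped between groups, and Mxd4 ran opposite to Myc. Of the 12 members of the family 6 were positive and 6 negative, at a median of -0.01. The other negative members, named after their values were seen, were Mxi1 (-0.24), Mxd3 (-0.30), Mxd1 (-0.12), Mnt (-0.07) and Mlxip (-0.09), of which all but Mlxip are Myc antagonists.

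The naming rule took members with an unadjusted p under 0.001, separate groups and at least 2 FPKM on average in either group. Those of largest positive change under this rule included genes of nutrient uptake and growth. Without the rule, the largest positive change of any member was 0.95, and Ccnd1, described below, was at 0.73. Srm, which makes the polyamine spermidine, was at 48.9, 54.5 and 50.8 FPKM in knockout libraries, against 31.5, 31.4 and 34.1 FPKM in control libraries. Its log2 change was 0.65 ± 0.10 (adjusted p = 0.0849). Slc7a5, the leucine transporter, was at 15.9, 14.3 and 14.1 FPKM in knockout libraries, against 8.74, 9.83 and 9.48 FPKM in control libraries, a change of 0.61 ± 0.09 (adjusted p = 0.0673). The groups did not overlap in either gene.

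The same rule named Mybl2, a cell cycle transcription factor (0.60), Aimp2, a scaffold of the multi-synthetase complex (0.59), Ifrd2 (0.59), Spred2, an inhibitor of Ras signalling (0.58), and Mybbp1a, a nucleolar Myb-binding protein (0.55). It also named the pyrophosphatase Ppa1 (0.53), the growth-linked Pa2g4 (0.52), Ap1s3 (0.52), Tex30 (0.51), the tRNA methyltransferase Mettl1 (0.51) and 2610318N02Rik (0.51). Their adjusted p-values ran from 0.0570 for Ifrd2 to 0.105 for Tex30. Polyamine metabolism as a list had 7 of 13 members positive, with Odc1 at 0.36 and Eif5a at 0.32. Amino acid transporters were mixed, with 6 of 19 positive, Slc7a1 at 0.43 and Slc38a9 at -0.27.

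Most translation and folding genes had positive changes, and none passed adjustment. Aminoacyl-tRNA synthetases, which load amino acids on transfer RNA, had 22 of 23 members positive and 12 higher at an unadjusted p under 0.05, with a median of 0.27. Farsa was at 20.3, 19.2 and 19.2 FPKM in knockout libraries, against 15.9, 16.5 and 15.7 FPKM in control libraries. Initiation and elongation factors had 31 of 36 positive and 13 higher, with a median of 0.14; Eif4e, the cap-binding protein, differed by 0.30. The chaperonin list had 26 of 27 positive and 11 higher, with a median of 0.22, and its subunit Cct3 was at 48.6, 43.4 and 41.5 FPKM in knockout libraries, against 29.1, 32.8 and 36.1 FPKM in control libraries. The proteasome had 44 of 48 positive and 17 higher, a median of 0.18, and Psme3, an activator of the nuclear proteasome, at 0.36. For all of these, the separation between groups was smallest in replicate pair 3, where list medians were 0.02 to 0.07.

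Nucleotide and one-carbon synthesis supplies RNA and DNA. All 19 members of the purine and pyrimidine list were positive and 13 were higher at an unadjusted p under 0.05, with a median of 0.25. Ctps, which makes CTP, was at 11.6, 10.5 and 11 FPKM in knockout libraries, against 6.59, 7.15 and 8.49 FPKM in control libraries. Ppat, the first enzyme of purine synthesis, was at 11.6, 11.5 and 10.1 FPKM in knockout libraries, against 7.11, 7.60 and 8.85 FPKM in control libraries. Gart, a purine enzyme with several activities, differed by 0.48. The folate list had 11 of 13 positive and a median of 0.25, with the serine hydroxymethyltransferases Shmt1 at 0.49 and Shmt2 at 0.38. Psat1, of serine synthesis, differed by 0.48 and is on another list, that of Atf4 and amino acid response targets. That list was mixed, with 9 of 20 members positive and a median of -0.02.

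Cell division genes were also higher by sign. All 44 members of the replication list were positive and 29 were higher at an unadjusted p under 0.05 (65.9%), with a median of 0.30. Mcm5, part of the replicative helicase, was at 46.3, 45.8 and 44.9 FPKM in knockout libraries, against 31.2, 32.4 and 39.2 FPKM in control libraries. Orc1, of the origin recognition complex, was at 2.29, 1.98 and 1.86 FPKM in knockout libraries, against 1.16, 1.22 and 1.28 FPKM in control libraries. Neither gene overlapped between groups. Mcm2 differed by 0.43 and the loading factor Cdc6 by 0.44. The replication median was 0.45 in replicate pair 1, 0.39 in pair 2 and 0.06 in pair 3.

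In the G1 to S list 17 of 25 members were positive. At an unadjusted p under 0.05, 8 were higher (32%, against 9.37% of all members) and 3 were lower (12%, against 6.83%). Ccnd1, cyclin D1, was at 16.0, 18.3 and 16.0 FPKM in knockout libraries, against 8.06, 9.66 and 11.5 FPKM in control libraries, a log2 change of 0.73 ± 0.20 (adjusted p = 0.146). Cdkn1b, the Cdk inhibitor p27, was at 13.3, 13.8 and 14.8 FPKM in knockout libraries, against 16.9, 18.9 and 17.6 FPKM in control libraries. Rbl2, a pocket protein that holds cells in arrest, differed by -0.18 and the phosphatase Cdc25a by 0.34. G2 and mitosis genes had 43 of 44 positive and 12 higher at an unadjusted p under 0.05, with a median of 0.19, but control replicate 3 overlapped the knockout libraries in the level of that list.

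Transport and splicing genes completed the higher side. Nuclear pore and transport receptors had 46 of 47 positive and 25 higher at an unadjusted p under 0.05, with a median of 0.22. Rcc1, the exchange factor of Ran, was at 23.5, 21.4 and 19.8 FPKM in knockout libraries, against 14.2, 14.6 and 17 FPKM in control libraries. Mitochondrial ribosomal proteins had 69 of 77 positive at a median of 0.12, and mitochondrial import 20 of 23 at 0.13. Splicing factors with Srsf or Sf3 symbols had 18 of 19 positive at a median of 0.17. Respiratory chain genes stayed near the all-member median. Complex I subunits had 19 of 35 positive and a median of 0.01, and other oxidative phosphorylation subunits 16 of 46 and -0.03.

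The FoxO-type list of growth arrest and catabolic genes was lower in the knockout libraries. Of 35 members 33 were negative, 21 were lower at an unadjusted p under 0.05 (60.0%, against 6.83% of all members) and none was higher. The median log2 change was -0.30, with -0.38, -0.27 and -0.18 in replicate pairs 1, 2 and 3. It was -0.28 between the libraries with more ribosomal RNA and -0.30 between the pair with less. In 22 of the 35 members all knockout libraries lay below all control libraries, against 11.6% of all members. The list holds genes that several other factors also control, so it names a kind of gene and not a regulator.

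Calcoco1, an autophagy receptor of the endoplasmic reticulum, was at 4.93, 4.46 and 4.68 FPKM in knockout libraries, against 6.71, 7.01 and 6.29 FPKM in control libraries, a log2 change of -0.43 ± 0.06 (adjusted p = 0.0570). Klhl24, a ubiquitin ligase adaptor, was at 13.9, 13.3 and 14.2 FPKM in knockout libraries, against 19.6, 20.5 and 18.1 FPKM in control libraries (adjusted p = 0.0673). Sesn1, a sestrin that restrains mTORC1 when leucine is low, was at 9.64, 9.60 and 10.9 FPKM in knockout libraries, against 17.7, 13.7 and 14.8 FPKM in control libraries (adjusted p = 0.0849). All 3 had knockout libraries close to each other and separate from the control libraries. Hbp1 was at 9.67, 9.66 and 9.70 FPKM in knockout libraries, against 13, 12.7 and 13.1 FPKM in control libraries. Txnip was at 79.4, 82.0 and 90.1 FPKM in knockout libraries, against 124, 120.5 and 100 FPKM in control libraries. The 2 positive members were Klf9 (0.07) and Rictor (0.00).

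Related families were also lower by sign, in part through genes already counted on the FoxO-type list. Those genes include Trp53inp1, Pink1, Ypel5 and Btg2, so the Ypel and Btg family is not a fully separate result. Trp53inp1, a stress protein that promotes autophagy, was at 9.38, 9.54 and 10.6 FPKM in knockout libraries, against 16.6, 16.8 and 13.4 FPKM in control libraries. Pink1, the kinase that marks damaged mitochondria, was at 14.6, 17 and 16.4 FPKM in knockout libraries, against 27.8, 26.0 and 20 FPKM in control libraries. The Ypel and Btg family, small genes linked to slow growth, had all 6 members negative and a median of -0.26, with Ypel5 at -0.28 and Btg2 at -0.60. Autophagy genes had 32 of 39 negative and 11 lower at an unadjusted p under 0.05 (28.2%, against 6.83% of all members), with a median of -0.13. mTORC1 genes stayed near the all-member median at -0.04. At an unadjusted p under 0.05, 3 of 41 were lower, near the share of all members (7.32% against 6.83%). Sesn1 and Flcn (-0.26) were among the 3. The p53 targets had 10 of 21 positive and a median of -0.06, although Sesn1 and Trp53inp1 are among them.

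Glycolysis and hypoxia genes were lower in 31 of 33 members by sign, with 10 lower and none higher at an unadjusted p under 0.05 and a median of -0.19. Ndrg1, a gene induced by low oxygen, was at 4.79, 5.30 and 6.41 FPKM in knockout libraries, against 10.8, 11.4 and 8.40 FPKM in control libraries, a log2 change of -0.79 ± 0.13 (adjusted p = 0.0849). Bnip3, a mitophagy receptor on the autophagy list too, was at 43.9, 56.3 and 62.2 FPKM in knockout libraries, against 78.4, 113 and 81.8 FPKM in control libraries. Aldoc, a glycolytic aldolase, differed by -0.49. The groups did not overlap for these 3 genes.

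**Figure D3:**
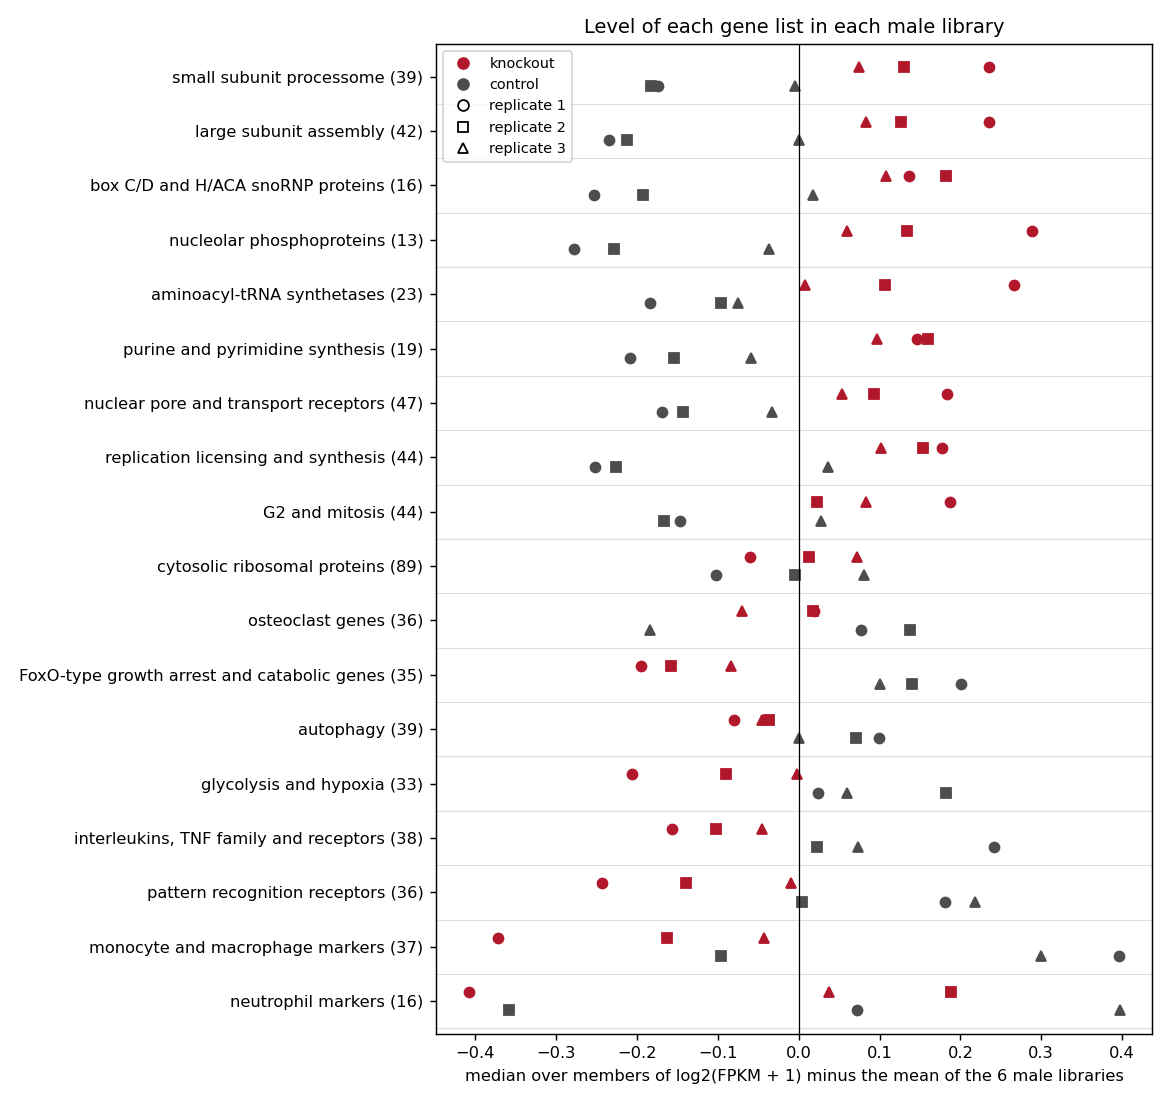
Level of 18 gene lists (rows, with the number of members) in each male library, as the median over members of log2(FPKM + 1) minus the gene's mean over the 6 libraries; red knockout points sit above grey control points in each row, and shapes give the replicate number. Knockout libraries lie to the right of all control libraries in the first 8 rows and to the left from the FoxO-type row to the pattern recognition row, while cytosolic ribosomal proteins, osteoclast genes, G2 and mitosis, monocyte markers and neutrophil markers overlap.

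Monocyte and macrophage markers were lower by sign in 35 of 37 members, with 13 lower and none higher at an unadjusted p under 0.05 and a median of -0.38. This list did not separate the libraries. Its median was -0.76 in replicate pair 1, -0.03 in pair 2 and -0.37 in pair 3, and it was -0.22 between the libraries with more ribosomal RNA and -0.67 between the pair with less. The level of the list in control replicate 2 (-0.10) lay between knockout replicates 2 (-0.16) and 3 (-0.04). Neutrophil markers had pair medians in the same order, at -0.45, 0.55 and -0.40, with a median of -0.11 and no member past an unadjusted p of 0.05. Their part in the results on immune genes was not tested.

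Within the list, F13a1, coagulation factor XIII of monocytes, was at 8.03, 10.1 and 13.1 FPKM in knockout libraries, against 22.0, 17.5 and 20.3 FPKM in control libraries (adjusted p = 0.105). Ccr2, the chemokine receptor of inflammatory monocytes, was at 18.7, 19.8 and 29.6 FPKM in knockout libraries, against 47.5, 42.3 and 39.2 FPKM in control libraries (adjusted p = 0.131). Unlike the list as a whole, both kept the groups apart in all libraries. Itgam, an integrin of myeloid cells, differed by -0.31. Adgre4, an adhesion receptor of macrophages that was on no list, was at 3.02, 2.72 and 4.85 FPKM in knockout libraries, against 12.8, 8.51 and 8.17 FPKM in control libraries. Its log2 change of -1.26 ± 0.22 (adjusted p = 0.0852) was second to that of Cx3cr1 among the named genes.

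Receptors of innate immunity were lower by sign in most members. Chemokine receptors had 12 of 15 negative, 3 lower at an unadjusted p under 0.05 (20%, against 6.83% of all members), and a median of -0.27. That median was -0.37, 0.02 and -0.37 in replicate pairs 1, 2 and 3, and -0.03 between the libraries with more ribosomal RNA against -0.59 between the pair with less; the groups overlapped in the level of the list. Besides Cx3cr1 and Ccr2, Cxcr4, the receptor that holds cells in marrow, was at 32.5, 26.0 and 34.3 FPKM in knockout libraries, against 48.0, 39.2 and 49.3 FPKM in control libraries. Ccr3 ran the other way, with a change of 0.35. Pattern recognition receptors had 30 of 36 negative and 12 lower at an unadjusted p under 0.05, with a median of -0.26. Nlrp3, the inflammasome sensor, was at 3.03, 3.58 and 3.10 FPKM in knockout libraries, against 5.59, 4.98 and 5.32 FPKM in control libraries. Fc, ITAM and ITIM receptors had 36 of 41 negative and a median of -0.21, with the inhibitory receptor Pirb at -0.35 and Sirpa at -0.34. Pirb has close copies, so its reads are uncertain where counting could split them.

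Cytokine and antigen presentation genes were negative in most members. Interleukin and TNF family genes and receptors had 38 members, of which Il1b passed the filter through the control libraries alone. Without it, 32 of 37 were negative and 12 were lower at an unadjusted p under 0.05, with a median of -0.17. Ifngr1, of the interferon gamma receptor, was at 37.8, 38.5 and 44.7 FPKM in knockout libraries, against 64.5, 50.4 and 55.2 FPKM in control libraries. Il10ra differed by -0.72 and Csf1r, the receptor of M-CSF, by -0.29. The class II and dendritic list had 25 of 29 negative and 8 lower at an unadjusted p under 0.05, with a median of -0.15, Ciita, the class II activator, at -0.46 and H2-Eb1 at -0.67. The list's median was -0.34, -0.07 and -0.14 in replicate pairs 1, 2 and 3, and -0.05 between the libraries with more ribosomal RNA against -0.345 between the pair with less, and its level overlapped between the groups. No NF-kB subunit or regulator passed an unadjusted p of 0.05 among 35 members, at a median of -0.05, and no interferon response gene did among 39, at 0.07.

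Immediate early genes, which respond within minutes to stimuli, had 29 members, of which Egr3 passed the filter through the control libraries alone. Without it, 23 of 28 were negative and 7 were lower at an unadjusted p under 0.05, with a median of -0.19. Over all 29 the median was -0.59 in replicate pair 1 and -0.03 in pair 3, and the level of the list overlapped between the groups. Egr3 was at 0.584, 0.503 and 0.530 FPKM in knockout libraries, against 1.54, 1.06 and 1.13 FPKM in control libraries. Dusp4, a phosphatase of MAP kinases, ran the other way, at 26.1, 30.3 and 27.1 FPKM in knockout libraries, against 20.5, 22.8 and 20.7 FPKM in control libraries.

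Among members with an unadjusted p under 0.001, groups that did not overlap and at least 2 FPKM on average in either group, the remaining ones with the largest negative changes belonged to several families. Selenbp1, a selenium-binding protein, was at 5.36, 5.88 and 6.88 FPKM in knockout libraries, against 13.2, 10.2 and 10.3 FPKM in control libraries. Nuak1, a kinase of the AMPK family, was at 1.00, 1.26 and 1.33 FPKM in knockout libraries, against 2.99, 2.65 and 2.17 FPKM in control libraries (adjusted p = 0.0570). The groups did not overlap in either. The others were Gpr18 (-0.78), Niban1 (-0.63), Abca1, the cholesterol exporter (-0.58), the collagen crosslinker Lox (-0.58) and Kctd12 (-0.55).

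Osteoclast genes as a list had a median near the all-member level. Of 36 members 14 were positive, 1 was higher at an unadjusted p under 0.05 and none was lower, with a median of -0.03. The 1 was Mitf, a transcription factor of osteoclast formation, at 23.8, 20.4 and 21.7 FPKM in knockout libraries, against 17.3, 16.8 and 20.9 FPKM in control libraries, which overlap. Nfatc1, the master regulator of the osteoclast programme, was at 69.3, 69.2 and 67.5 FPKM in knockout libraries, against 63.5, 68.5 and 55.3 FPKM in control libraries. V-ATPase subunits, which acidify the resorption pit, had 5 of 16 positive, none past an unadjusted p of 0.05, and a median of -0.08. Between the libraries with more ribosomal RNA, the osteoclast median was -0.13 and the V-ATPase median -0.14. Between the pair with less, these medians had the other sign, at 0.20 and 0.11. The direction of the osteoclast median turned positive in 3 of 19 alternative settings, to at most 0.05. Clock genes, the pathway of Per1, had 4 of 15 positive and a median of -0.02, with Nfil3 at -0.59 and Rora at -0.37.

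The female libraries were set beside the male ones for the same genes. Across members, the log2 changes of males and females had a Pearson r of -0.25 over 9699 genes, which share their libraries and are not independent, and 40.8% had the same sign. Of the 1571 members past an unadjusted p of 0.05 in males (16.2%), 595 (37.9%) had the same sign in females. The test of the difference itself, male minus female effect, passed for no member after adjustment and for 1683 at an unadjusted p under 0.05 (17.4%). The median change of the small subunit processome was 0.27 in males and -0.11 in females, and that of replication 0.30 in males and -0.05 in females. Genes of ribosomal RNA took 1.30% to 1.48% of fragments in female knockout libraries, against 0.456%, 1.21% and 0.527% in female control libraries, and the part of this share in the comparison of the sexes was not tested. Cx3cr1 had a change of -1.79 in males and -1.07 in females, with an adjusted p of 0.227 for the difference. Med19, a Mediator subunit, had the lowest p for the difference among members with a higher male effect, at 0.32 in males against -0.19 in females. Nuak1 had the lowest among those with a lower one, at -0.71 in males against 0.07 in females.

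**Figure D4:**
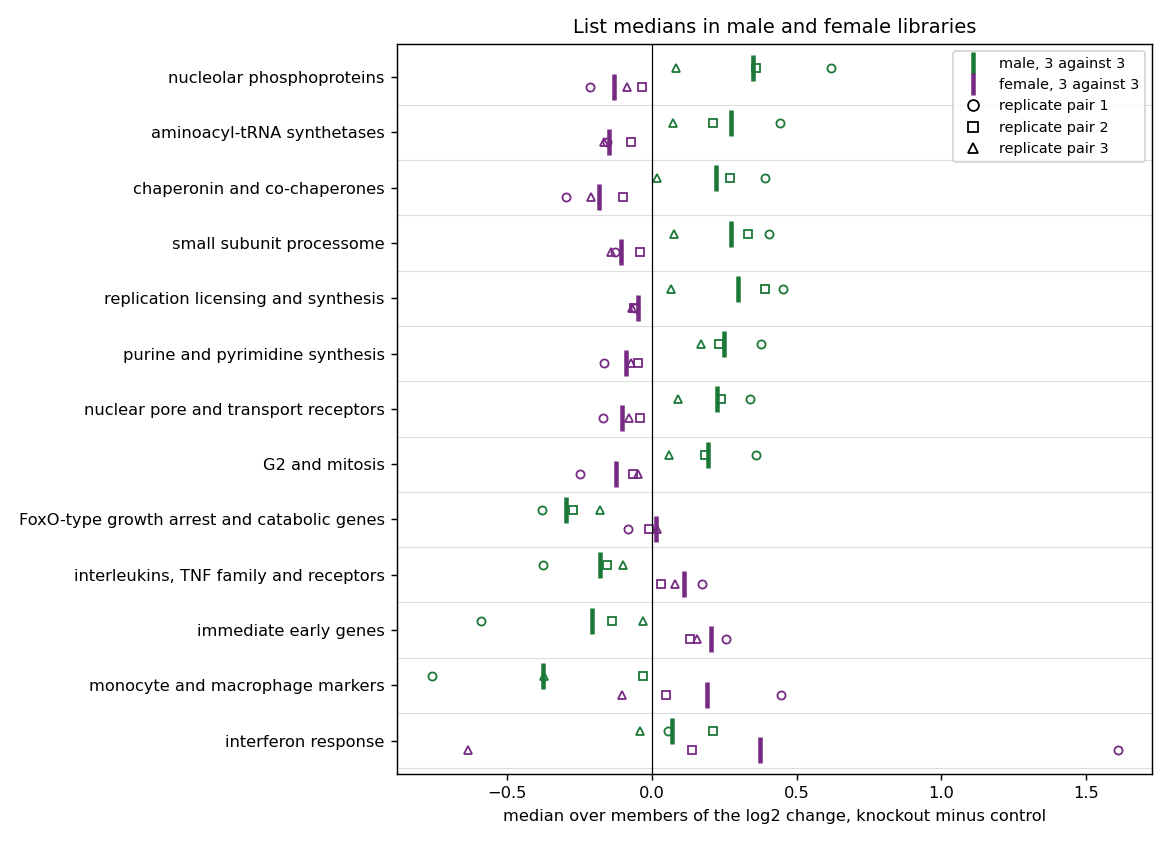
Median log2 change over the members of 13 gene lists (rows), knockout minus control, in male libraries (green, upper) and female libraries (purple, lower); bars give the fit of 3 against 3 and open shapes the same-numbered replicate pairs. Male pairs lie right of 0 and female pairs left of 0 for the first 8 lists, for example at a median of 0.35 against -0.13 for nucleolar phosphoproteins.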

How the data were processed

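Total RNA of 12 osteoclast cultures was sequenced, and the 6 male libraries were described here with the 6 female ones in the same fit. The submitters' processing notes list the aligner HISAT2 (2.0.5), the counter featureCounts (1.5.0-p3) and the build mm10. No role, parameter or strand setting is given in the sources used here, so reads of overlapping or antisense genes cannot be told apart. The authors deposited FPKM per gene. The table's coordinates could not be tied to that build, so only chromosomes are given. Multiplied by gene length, the deposited FPKM gave whole fragments for 100% of values (tolerance 0.01), and these rebuilt fragments served for depth and voom.

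Genes with 1 FPKM or more in at least 3 of the 12 libraries were tested (12237, of which 9699 are members). FPKM are not counts, so the main test was limma (3.58.1, R 4.3.3) on log2(FPKM + 1). It used a mean per group and trended moderated variances, was two-sided, and adjusted p by Benjamini-Hochberg with a threshold of 0.05. This scale understates changes of low genes. The contrasts were male knockout minus control, and that effect minus the female one. The code of the fit was run on simulated libraries with independent noise and changes far larger than most seen here. That run does not measure how well the fit finds changes in these data. Lists are described by counts and medians, with no test of a list. The members, lists and tests were chosen with earlier results of these data known.

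Named genes were Per1, every called member, and per direction the 15 members of largest change among those with an unadjusted p under 0.001, separate groups and at least 2 FPKM on average in either group. Up to 4 members of lowest p per list, 2 per symbol family and 5 per direction for the sex difference were added, and genes with a promoter shown. Others are named after their values were seen.

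Replicate numbers are batches per the labels, so they pair libraries by design. Deviations of same-numbered male libraries correlated at -0.33, 0.07 and -0.02. Those of differently numbered knockout and control libraries correlated at -0.24 to 0.24. The medians by replicate pair thus rest on the labels, and not on a likeness seen in the data. Alternatives covered the pseudocount, filter, scaling, variance model, library weights (gene-by-gene method), voom, libraries in the fit, replicate block, share of ribosomal RNA fragments, and leaving out each library. A fit of the 8 libraries with more ribosomal RNA was added after seeing the data.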

Additional observations from a re-analysis of the deposited data

Results flagged for a closer look

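In 22 gene lists, all 3 same-numbered male pairs had a median log2 change of one sign and all 3 female pairs the opposite sign. Most lists did not meet this rule, and some lists share genes. Large subunit assembly did not meet it (female pairs -0.12, 0.02 and -0.16), nor did small nucleolar ribonucleoproteins (-0.02, 0.06 and -0.04). The FoxO-type list, lower in all male pairs, had female pairs at -0.08, -0.01 and 0.02. The values below are the male median minus the female median. The difference between the sexes was not tested for any list, and among single members it passed adjustment for none (1683 members, 17.4%, at an unadjusted p under 0.05).

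Among lists of ribosome and protein synthesis, the difference was 0.38 for the small subunit processome, 0.479 for nucleolar phosphoproteins, 0.242 for the exosome, 0.422 for aminoacyl-tRNA synthetases, 0.244 for translation factors, 0.146 for mitochondrial ribosomal proteins, 0.148 for Dhx helicases and 0.149 for Wdr genes. Among lists of metabolism, folding and turnover, it was 0.164 for polyamine metabolism, 0.337 for purine and pyrimidine synthesis, 0.32 for folate enzymes, 0.407 for the chaperonin list, 0.193 for mitochondrial import, 0.243 for the proteasome and 0.152 for Usp proteases. It was 0.328 for nuclear pore and transport receptors, 0.345 for replication and 0.318 for G2 and mitosis.

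On the lower side, the difference was -0.371 for chemokines, -0.291 for interleukins and the TNF family, -0.412 for immediate early genes and -0.0523 for NF-kB genes. The first 3 of these lists include Cxcl2, Il1b and Egr3 in turn, which passed the filter through the control libraries alone. Without them the male medians were -0.08, -0.17 and -0.19, against -0.12, -0.18 and -0.21 with them. The differences given here include them. For NF-kB genes the medians of 3 against 3 were both negative, at -0.053 in males and -0.001 in females. No chemokine and no NF-kB member passed an unadjusted p of 0.05 in males. The male chemokine median turned positive in 2 of 19 alternative settings, to at most 0.13.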

How the results depend on the processing

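Lists kept the sign of their median under all 19 alternative settings for 11 of the 13 lists of main interest, the exceptions being osteoclast genes and cytosolic ribosomal proteins. The median ran from 0.24 to 0.35 for the small subunit processome, 0.25 to 0.41 for large subunit assembly, 0.24 to 0.38 for replication, -0.34 to -0.26 for the FoxO-type list and -0.51 (without control replicate 2) to -0.22 (8 libraries) for monocyte markers. The cytosolic ribosomal median was 0.0511 with library weights, 0.0848 in the 8 libraries with more ribosomal RNA and -0.0497 to 0.0494 with 1 library left out.

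Counts of called genes depended on the setting. Genes called higher numbered 1 with no filter, 785 with library weights, 2 with voom, 40 with a term for the ribosomal RNA share and 0 to 45 with 1 library left out. Genes called lower numbered 4 at a pseudocount of 0.1, 571 with library weights, 3 with voom, 20 with the ribosomal RNA term, 0 in the 6 male libraries alone, 0 in the 8 libraries and 0 to 19 with 1 library left out. Library weights, estimated from the same 3 libraries per group, also gave 1609 members higher and 1413 lower at an unadjusted p under 0.05, against 530 to 1057 and 379 to 814 with 1 library left out. The cause of these shifts was not tested.

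With the replicate number as a block, 0 genes were called higher and 1 lower, and with the replicate number within sex as a block 0 and 0, so that block ended the call of Cx3cr1 at a log2 change of -1.79. Its change was also -1.79 in the male libraries alone, -1.61 in the 8 libraries, and -1.96 to -1.58 with 1 library left out. No reported value changed its direction among called results.

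Depth set a floor of 0.119 to 0.188 FPKM on a gene of 1 kb. Values near it carry large counting error.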
